A study of Mus musculus with 6 samples.

Results

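The hypoxia response and glycolysis genes described here are 35 genes that carry glucose into the cell, break it down or respond to the hypoxia-inducible factors (HIF). They were given as a list of symbols, and each is represented by every non-control probe whose transcript maps to it, 61 of 56593 probes on the array and 35 of 22903 named genes. Ero1l is listed under its older symbol and was matched through its current one, Ero1a. Of the 61 probes 59 passed the filter on dim probes, and all 35 genes were tested.

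The study asked how gene expression changes when Ggct, which encodes gamma-glutamylcyclotransferase, is suppressed. Total RNA came from 3 samples of a mouse glioblastoma stem cell line carrying a lentiviral shRNA against Ggct (knockdown; every title names the same hairpin, mGGCTsh3) and 3 samples of the same line carrying a non-target shRNA (control), and each sample was hybridised to 1 Cy3 array. Both groups share the line, named 5B in the titles, which was derived by the neurosphere method from mouse glioblastomas induced with the SB transposon, and both were grown in serum-free neural stem cell medium with EGF and bFGF. Limits of the model are that there is 1 line and 1 hairpin against Ggct, that the labels name no oxygen treatment, and that they do not say whether the samples of a group were separate cultures, so the p-values rest on a spread between samples that may be technical.

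Values are given as log2 processed signal after subtraction of each array's 75th percentile. Arrays had 54.5% to 56.8% of probes well above background, 0 spots were saturated, and the number of arrays limits the precision. Ggct had values of 0.22, 0.91 and 0.70 in knockdown arrays, against 3.32, 3.72 and 3.70 in control arrays, a level 12.7% of control (limma adjusted p = 0.00314). Of 14148 genes tested, 1048 passed an adjusted p of 0.05, which is 7.41%, with 4.57% higher and 2.84% lower in the knockdown. Knockdown replicate 1 stood apart: its first principal component score was 46.6, that of knockdown replicates 2 and 3 was 9.1 and 15.4, and controls scored -30.5 to -15.0. Among neural and glioma stem cell markers 8 were well above background on all 6 arrays, Sox2, Nes and Prom1 included, whereas Olig2 was above background on 0 arrays.

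When oxygen is scarce, prolyl hydroxylases of the EGLN family no longer mark the HIF alpha subunits for degradation by the VHL complex. The stabilised subunit pairs with ARNT and binds hypoxia response elements in genes for glucose uptake, glycolysis, blood vessel growth and mitochondrial turnover. Glioblastoma contains poorly oxygenated regions in which these genes are known to be induced, and cultured glioma cells use glycolysis heavily even with oxygen present. HIF1A is controlled largely through protein stability, which an mRNA array does not measure.

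Of the 35 genes 4 fell and 1 rose past the threshold in the knockdown, that is 5 of 35, beside the 7.41% of all genes tested. The falls were Ndrg1, Vegfa, Ero1l and Slc2a1, and the rise was Bnip3l. The median log2 fold change (knockdown over control) of the 35 was -0.04, against 0.02 over all genes, with 21 genes below 0 and 14 above. The median size of the change regardless of sign was 0.16, against 0.20 over all genes. The members were chosen with earlier results of these data known, so these counts describe the set and are not a test of it.

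**Figure D1:**
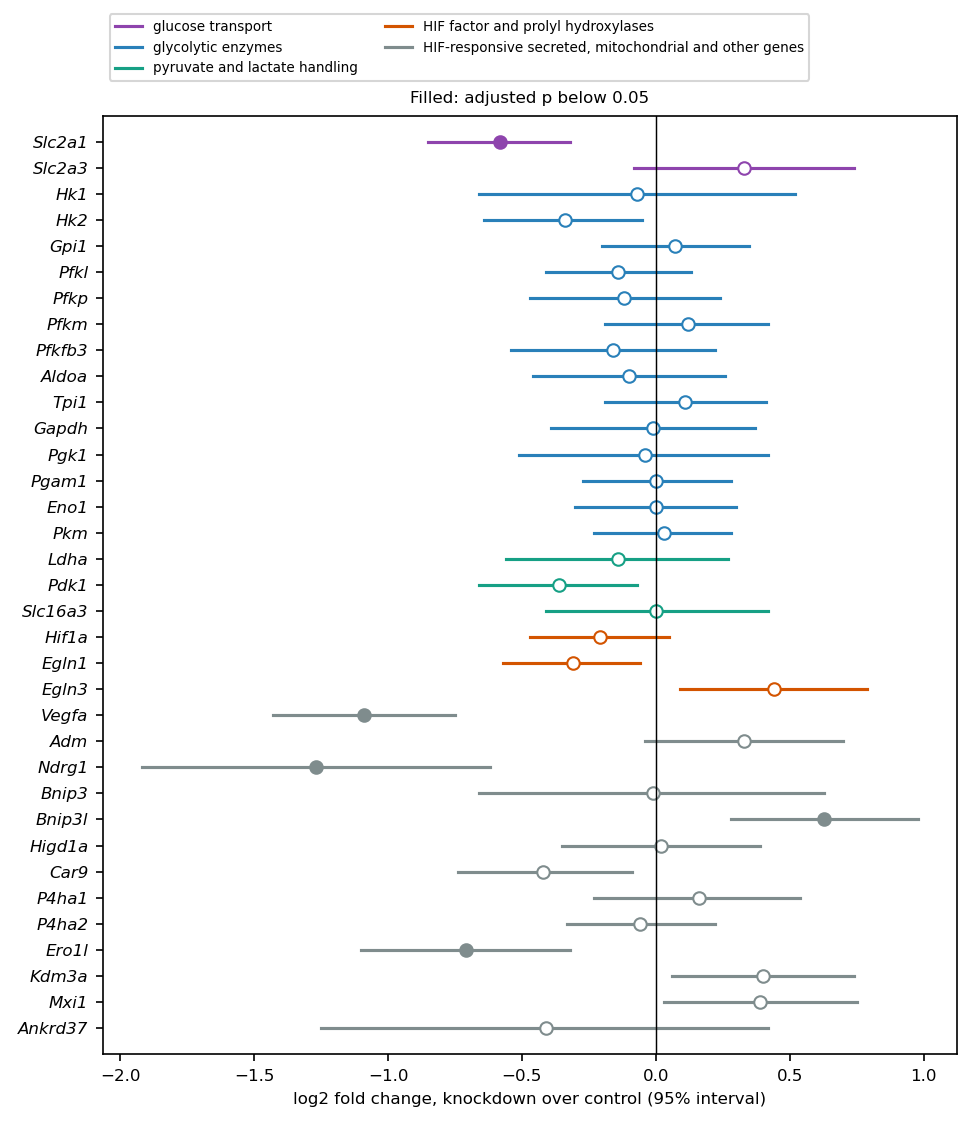
Log2 fold change of the 35 genes, knockdown over control, from the limma fit across all genes, with 95% intervals (x axis) and genes in rows coloured by role. Filled points passed an adjusted p of 0.05: Slc2a1, Vegfa, Ndrg1 and Ero1l lie left of 0 and Bnip3l right of it, while the 14 enzymes from Hk1 to Pkm lie between -0.34 and 0.12.

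The proximal promoters of 3 of the genes that fell, and of 2 glycolytic genes that did not pass, are shown because HIF binds the core letters ACGTG or GCGTG. Each is the 250 bases before the farthest upstream start site in RefSeq (GRCm38.p6), 5′ to 3′ on the strand of the gene, with every run of ACGTG or GCGTG on either strand in capitals. Overlapping matches were joined, and CACGTG, which reads the same on both strands, counts once.

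Vegfa, chr17:46032378-46032627, minus strand: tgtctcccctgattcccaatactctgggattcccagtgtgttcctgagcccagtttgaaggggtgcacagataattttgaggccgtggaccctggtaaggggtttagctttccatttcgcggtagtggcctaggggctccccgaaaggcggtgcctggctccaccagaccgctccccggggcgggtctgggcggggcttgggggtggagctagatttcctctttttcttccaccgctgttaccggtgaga
Slc2a1, chr4:119108495-119108744, plus strand: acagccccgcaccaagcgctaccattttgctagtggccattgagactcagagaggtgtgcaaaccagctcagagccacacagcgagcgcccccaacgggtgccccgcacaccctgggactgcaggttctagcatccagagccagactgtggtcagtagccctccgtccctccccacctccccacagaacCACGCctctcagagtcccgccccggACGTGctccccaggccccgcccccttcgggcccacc
Ero1l, chr14:45318573-45318822, minus strand: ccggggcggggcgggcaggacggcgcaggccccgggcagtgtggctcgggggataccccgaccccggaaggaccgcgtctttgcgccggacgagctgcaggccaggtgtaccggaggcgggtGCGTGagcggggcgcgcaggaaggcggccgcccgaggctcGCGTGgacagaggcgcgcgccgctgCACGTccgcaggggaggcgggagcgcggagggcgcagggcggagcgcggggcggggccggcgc
Pgk1, chrX:106186850-106187099, plus strand: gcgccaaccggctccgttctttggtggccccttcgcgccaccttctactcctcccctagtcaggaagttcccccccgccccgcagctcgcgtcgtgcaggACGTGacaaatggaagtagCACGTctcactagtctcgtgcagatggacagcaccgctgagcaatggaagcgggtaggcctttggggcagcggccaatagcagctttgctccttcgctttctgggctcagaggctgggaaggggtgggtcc
Ldha, chr7:46845554-46845803, plus strand: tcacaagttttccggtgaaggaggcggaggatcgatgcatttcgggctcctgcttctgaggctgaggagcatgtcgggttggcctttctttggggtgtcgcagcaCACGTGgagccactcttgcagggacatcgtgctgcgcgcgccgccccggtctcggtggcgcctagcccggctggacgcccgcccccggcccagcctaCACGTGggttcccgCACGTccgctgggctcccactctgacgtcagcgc

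The windows held 0 matches for Vegfa, 2 for Slc2a1, 3 for Ero1l, 2 for Pgk1 and 3 for Ldha, so the letters were present both in genes that fell and in genes that did not pass. Of the 32 genes of the set with an entry in the table, 25 (78.1%) held at least 1 match, against 54.3% of the 11238 tested genes with an entry and 38.6% of all 32851 windows in the table. Base composition moved with this share: the median GC content was 63.4% in the set, 59.2% over tested genes and 52.4% over all windows, and its part in the difference was not tested. Ndrg1, Bnip3l and Slc2a3 had no entry. A match is a run of letters and not a bound site, and a window with none says nothing about elements farther away.

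Of the 2 glucose transporter genes 1 fell and the other did not pass. Slc2a1, the gene of GLUT1, the transporter found on most cells including those of the blood-brain barrier, had values of 3.68, 3.69 and 3.84 in knockdown arrays, against 4.27, 4.30 and 4.39 in control arrays. The groups did not overlap, and the 3 pairs of arrays that share a date differed by -0.58, -0.60 and -0.55, the narrowest spread of the 5 genes past the threshold. The mean level of Slc2a1 was 66.9% of control (-0.58 ± 0.11 on the log2 scale, SE; limma adjusted p = 0.0284). Slc2a3, the gene of GLUT3, a transporter of high affinity used by neurons, had values of 2.97, 3.03 and 3.06 in knockdown arrays, against 2.30, 2.85 and 2.92 in control arrays. Its knockdown values all lay above the control values, but the log2 fold change of 0.33 ± 0.18 (SE) did not pass (limma adjusted p = 0.302), and control replicate 1 was the array farthest from the rest. A dimmer Slc2a3 probe had 0.02 ± 0.37 (SE). Whether the transporters differ in response was not tested.

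None of the 14 glycolytic enzyme genes passed the threshold. Only 1, Hk2, had an unadjusted limma p below 0.05, beside 3507 of all 14148 genes. Their log2 fold changes ran from -0.34 to 0.12 with a median of -0.03, and 9 were below 0 and 5 above, although 10 of the 14 changed sign under at least 1 alternative setting. Hk2, an inducible hexokinase bound to mitochondria, had 1.55, 1.33 and 1.43 in knockdown arrays, against 1.74, 1.67 and 1.93 in control arrays. Every knockdown value of Hk2 was below every control value, a difference of -0.34 ± 0.13 (SE; limma adjusted p = 0.144). Hk1, the hexokinase abundant in brain, had -0.07 ± 0.25 (SE), and its pairs ran from -0.90 to 0.55.

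The phosphofructokinase step, at which glycolysis is chiefly regulated, was near 0 for each of its subunit genes. Pfkl had a log2 fold change of -0.14, Pfkp of -0.12 and Pfkm of 0.12, and Pfkfb3, whose product makes the activator fructose 2,6-bisphosphate, had -0.16 ± 0.16 (SE). Pfkl was low in all knockdown arrays, at 2.52, 2.60 and 2.45, against 2.63, 2.60 and 2.76 in control arrays, so that the nearest arrays of the groups both read 2.60. Its limma adjusted p was 0.506.

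The abundant enzymes of the pathway had differences near 0. Gapdh, which encodes glyceraldehyde-3-phosphate dehydrogenase, had 8.14, 8.65 and 8.48 in knockdown arrays, against 8.43, 8.58 and 8.28 in control arrays. The groups overlapped fully, and the log2 fold change was -0.01 ± 0.16 (SE), with a 95% interval that runs from -23.6% to 29.3% relative to control. Eno1 (enolase) and Pgam1 (phosphoglycerate mutase) had 0.00, Pkm (pyruvate kinase) 0.03, Pgk1 (phosphoglycerate kinase) -0.04, Gpi1 (glucose-6-phosphate isomerase) 0.07, Aldoa (aldolase A) -0.10 and Tpi1 (triosephosphate isomerase) 0.11. The 95% intervals of 13 of the 14 enzymes included 0, and over all 14 the widest, that of Hk1, ran from -36.7% to 43.1%. An interval leaves out 0 where the unadjusted limma p is below 0.05, as for 3507 of all 14148 genes. Several of these genes have many processed pseudogenes in the mouse genome, and their probes may read more than 1 locus.

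For 13 of the 14 enzymes, Hk2 being the exception, the difference between group means was smaller than the larger of the ranges within a group. The share over all genes was not computed, so this count is not read as a trait of the enzymes. Pgk1 had 7.89, 8.48 and 8.53 in knockdown arrays, against 8.35, 8.55 and 8.14 in control arrays. Knockdown replicate 1 was the lowest knockdown array for 6 of the 14 enzymes, Pgk1, Gapdh, Aldoa, Eno1, Pkm and Tpi1, and also for Ldha. It was the highest for 6 others, Hk1, Hk2, Pfkp, Pfkm, Pfkfb3 and Pgam1. Pair 1 differed by -0.46 and pair 3 by 0.39 for Pgk1, whereas Hk1 had 0.55 in pair 1 and -0.90 in pair 3. Within the same pair, members of the pathway thus differed in sign.

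**Figure D2:**
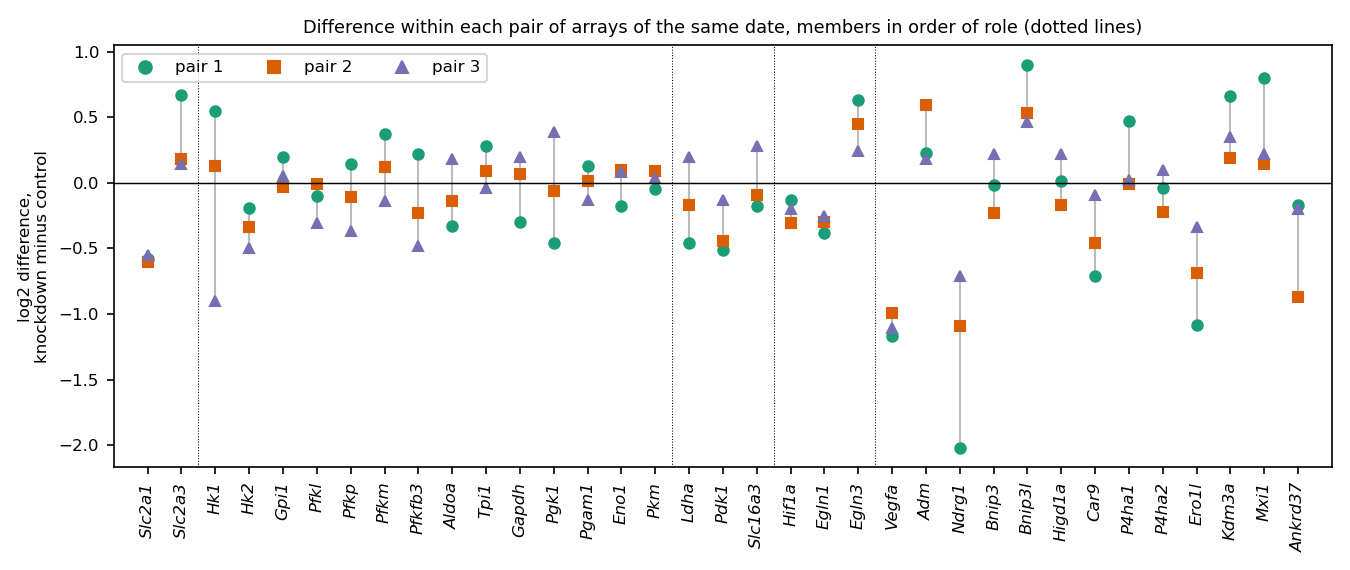
Log2 difference, knockdown minus control, within each of the 3 pairs of arrays that share a date (y axis), for the 35 genes in order of role, with dotted lines between roles. Slc2a1, Vegfa, Ndrg1 and Ero1l are below 0 and Bnip3l above 0 in all 3 pairs, while Pgk1 runs from -0.46 to 0.39 and Hk1 from -0.90 to 0.55.

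Genes for the fate of pyruvate did not pass. Ldha, which encodes the lactate dehydrogenase subunit that favours lactate, had 7.38, 7.88 and 7.95 in knockdown arrays, against 7.84, 8.06 and 7.75 in control arrays. The groups overlapped, with a log2 fold change of -0.14 ± 0.18 (SE). Pdk1, whose kinase blocks entry of pyruvate into the mitochondrial cycle, had 3.29, 3.29 and 3.57 in knockdown arrays, against 3.81, 3.73 and 3.70 in control arrays. Its groups did not overlap and all 3 pairs were below 0, with a mean difference of -0.36 ± 0.13 (SE; limma adjusted p = 0.128). Of the 3 other Pdk1 probes, 1 had -0.42 and 2 dim ones had -0.06 and -0.14. Slc16a3, the lactate exporter MCT4, was dim, at -4.55, -4.33 and -3.90 in knockdown arrays, against -4.38, -4.24 and -4.18 in control arrays, and its log2 fold change was 0.00 ± 0.18 (SE).

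The HIF subunit and its hydroxylases were separated between groups without passing the threshold. Hif1a had 4.39, 4.40 and 4.41 in knockdown arrays, against 4.52, 4.71 and 4.61 in control arrays. Every knockdown value was below every control value, and the mean difference was -0.21 ± 0.11 (SE; limma adjusted p = 0.291), its interval running from -0.47 to 0.05. Egln1, the main oxygen-sensing hydroxylase, had 2.85, 2.98 and 2.99 in knockdown arrays, against 3.24, 3.28 and 3.25 in control arrays (difference -0.31 ± 0.11, SE; limma adjusted p = 0.128). Egln3, a hydroxylase that is itself induced by HIF, had the opposite sign, with 3.20, 2.83 and 2.98 in knockdown arrays, against 2.57, 2.38 and 2.74 in control arrays (0.44 ± 0.15, SE; limma adjusted p = 0.12). Groups that do not overlap are common in these data, 17.8% of all genes with the knockdown higher and 14.6% with it lower, beside 6 and 10 of the 35 genes. Agreement of all 3 pairs is common too: of all 14148 genes 3723 were higher and 3164 lower in every pair, beside 6 and 11 of the 35.

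Of the secreted factors Vegfa fell and Adm did not pass. Vegfa encodes the growth factor that drives new blood vessels in glioblastoma and is a classical HIF target. It had 1.12, 0.88 and 0.94 in knockdown arrays, against 2.29, 1.87 and 2.05 in control arrays, so every knockdown array lay far below every control array. The level of Vegfa was 47.0% of control, 2.13-fold lower (-1.09 ± 0.15 on the log2 scale, SE; limma adjusted p = 0.0134), with pair differences of -1.17, -0.99 and -1.11. Adm, the gene of the vasodilator peptide adrenomedullin, had 2.24, 2.08 and 2.05 in knockdown arrays, against 2.01, 1.49 and 1.88 in control arrays. Adm was higher in all 3 pairs but did not pass (0.33 ± 0.16, SE; limma adjusted p = 0.250).

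Ndrg1, a stress-induced gene that restrains spread of several tumour types, had the largest estimate among the 35. Its values were 0.95, 1.96 and 2.0 in knockdown arrays, against 2.97, 3.04 and 2.70 in control arrays. All knockdown values were lower, and knockdown replicate 1 stood about a unit below the other knockdown arrays. Its level was 41.4% of control, 2.41-fold lower (-1.27 ± 0.28 on the log2 scale, SE; limma adjusted p = 0.0389), and the difference was -0.93 (limma adjusted p = 0.0170) without knockdown replicate 1.

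Ero1l encodes the oxidase that forms disulfide bonds in the endoplasmic reticulum, a step in the secretion of proteins such as VEGF. It had 4.72, 4.70 and 5.10 in knockdown arrays, against 5.80, 5.40 and 5.45 in control arrays. The groups did not overlap, and Ero1l stood at 61.2% of control (-0.71 ± 0.17 on the log2 scale, SE; limma adjusted p = 0.0478). The pair differences of -1.08, -0.69 and -0.34 were spread more widely than those of Slc2a1 or Vegfa. The adjusted p lies close to the threshold.

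Of the mitophagy receptor genes Bnip3l rose and Bnip3 did not pass. Bnip3l (NIX), which marks mitochondria for autophagy and is induced by HIF and by other stress factors, had 4.25, 3.98 and 4.21 in knockdown arrays, against 3.35, 3.44 and 3.75 in control arrays. All knockdown values lay above the controls, and Bnip3l was 1.55-fold higher (0.63 ± 0.15 on the log2 scale, SE; limma adjusted p = 0.0477). Its relative Bnip3, another mitophagy receptor induced by HIF, had 3.49, 3.60 and 4.42 in knockdown arrays, against 3.51, 3.82 and 4.20 in control arrays. The Bnip3 groups overlapped, at -0.01 ± 0.28 (SE; limma adjusted p = 0.988). Higd1a, a hypoxia-induced protein of the inner mitochondrial membrane, was at 0.02 ± 0.16 (SE).

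**Figure D3:**
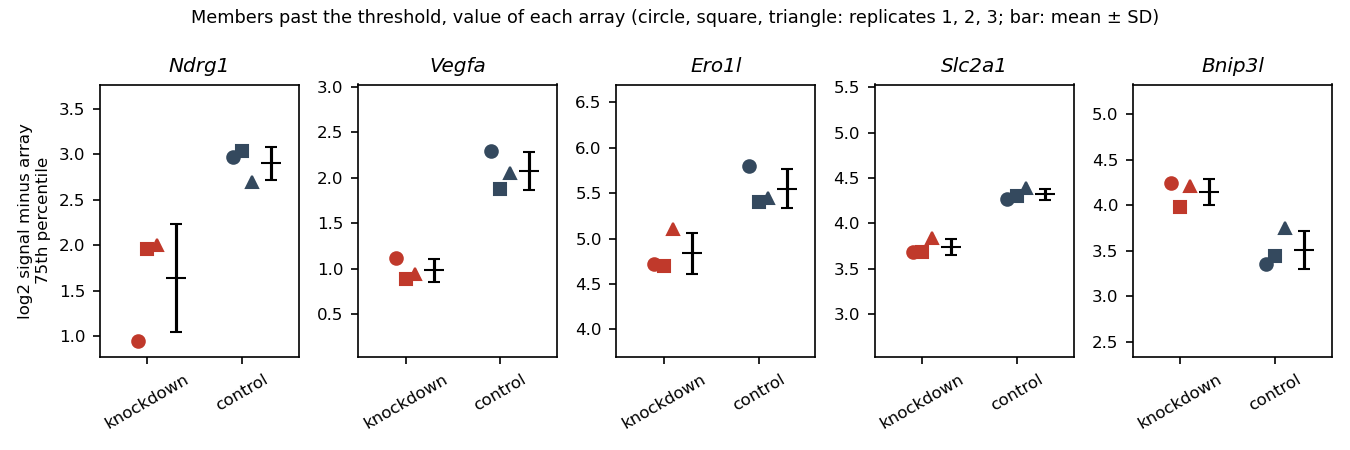
Value of each array for the 5 genes past the threshold, as log2 signal relative to the 75th percentile of the array (y axis, 3 units high in each panel), knockdown left and control right, with replicates 1, 2 and 3 as circle, square and triangle and a bar for the mean ± SD. In each panel the groups do not overlap, and the circle of Ndrg1 at 0.95 is the lowest of its 3 knockdown values.

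The remaining HIF-responsive genes did not pass. Car9, the acid-regulating carbonic anhydrase used as a hypoxia marker in tumours, had 0.70, 0.77 and 0.96 in knockdown arrays, against 1.41, 1.23 and 1.05 in control arrays, lower in all 3 pairs (-0.42 ± 0.14, SE; limma adjusted p = 0.118). Kdm3a, a histone demethylase, had 3.25, 2.91 and 3.25 in knockdown arrays, against 2.59, 2.72 and 2.90 in control arrays (0.40 ± 0.15, SE; limma adjusted p = 0.144). Mxi1, a repressor that opposes MYC, had 1.33, 0.95 and 1.13 in knockdown arrays, against 0.54, 0.80 and 0.91 in control arrays (0.39 ± 0.15, SE; limma adjusted p = 0.172). All values of Kdm3a and Mxi1 were higher in the knockdown, and those of Car9 lower. The collagen prolyl hydroxylase genes P4ha1 and P4ha2 had 0.16 and -0.06. Ankrd37, a compact HIF target of unsettled function, was dim and variable, with -2.31, -2.60 and -1.35 in knockdown arrays, against -2.14, -1.72 and -1.15 in control arrays. Its groups overlapped, though all 3 pairs were below 0 (-0.41 ± 0.36, SE; limma adjusted p = 0.536).

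Probes of the same gene pointed the same way for most genes with several. Of the genes past the threshold, Slc2a1, Ndrg1 and Ero1l had only 1 probe each, so no second probe could be compared. All 4 Vegfa probes were below 0, at -1.09, -0.89, -0.82 and -0.67, both Bnip3l probes were above 0, at 0.63 and 0.74, and both Car9 probes were below 0, at -0.42 and -0.38. The 6 Gapdh probes ran from -0.01 to 0.15. Of 14 genes with more than 1 kept probe, 2 had probes of opposite sign after rounding to 0.01, Gapdh and P4ha1, and no probe of either passed. The Eno1 probes, at 0.00 and 0.17, are not counted, since the first is below 0 only before rounding. The dimmest Vegfa probe overlapped between groups, its pairs running from -2.23 to 0.32, and so did the second Bnip3l probe. With every kept probe as a feature the test is stricter, since 1.75% of 31804 probes passed (1.16% higher and 0.591% lower in the knockdown): 1 of the 59 probes did so, the brightest Vegfa probe (limma adjusted p = 0.0378), and the next was a second Vegfa probe at 0.0504.

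**Figure D4:**
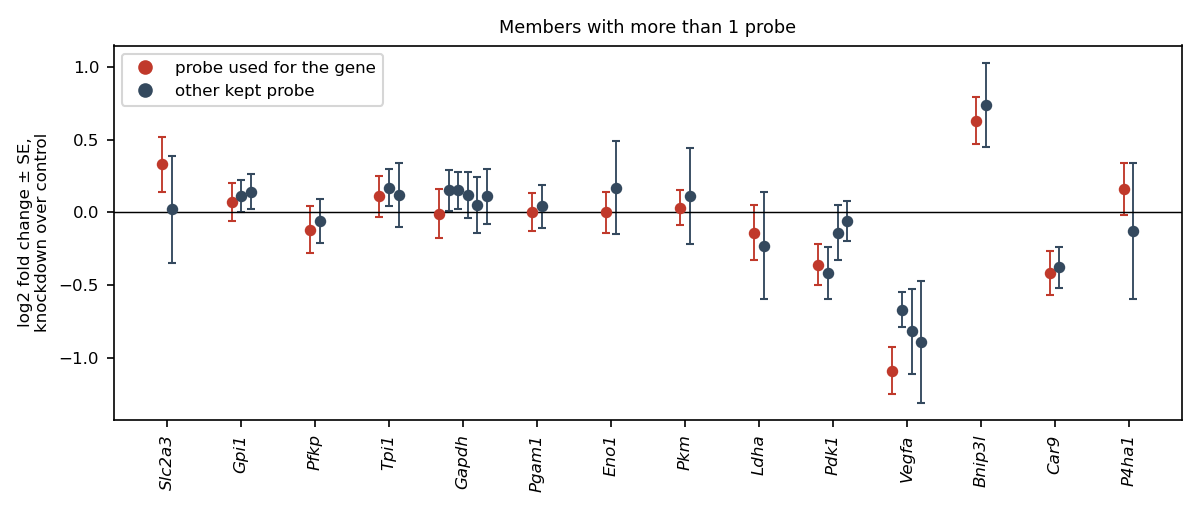
Log2 fold change ± SE of each kept probe (y axis, knockdown over control) for the 14 genes with more than 1, with the probe used for the gene in red and the others in dark blue, each gene in falling order of control level. The 4 Vegfa probes lie between -1.09 and -0.67 and both Bnip3l probes above 0, while the 6 Gapdh probes lie between -0.01 and 0.15.

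With the pair of arrays as a replicate block in limma, 3.94% of all genes passed (2.78% higher and 1.16% lower in the knockdown) and Vegfa alone of the 35 did (adjusted p = 0.0267). The adjusted p was 0.0619 for Slc2a1, 0.0687 for Ndrg1, 0.0778 for Bnip3l and 0.0910 for Ero1l, with the same fold changes. Single arrays also decided the calls. None of the 5 passed without control replicate 1, control replicate 2 or knockdown replicate 3, when 14, 42 and 21 of all genes did, and the adjusted p of Vegfa was then between 0.0518 and 0.0583. Without knockdown replicate 1 the genes Slc2a1, Vegfa and Ndrg1 passed, without knockdown replicate 2 Vegfa and Ndrg1, and without control replicate 3 Vegfa and Bnip3l, beside 840, 626 and 424 of all 14148 genes in that order. The log2 fold changes moved less: with single arrays left out they ran from -1.19 to -0.98 for Vegfa, -1.45 to -0.93 for Ndrg1, -0.84 to -0.58 for Ero1l, -0.63 to -0.54 for Slc2a1 and 0.55 to 0.75 for Bnip3l.

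**Figure D5:**
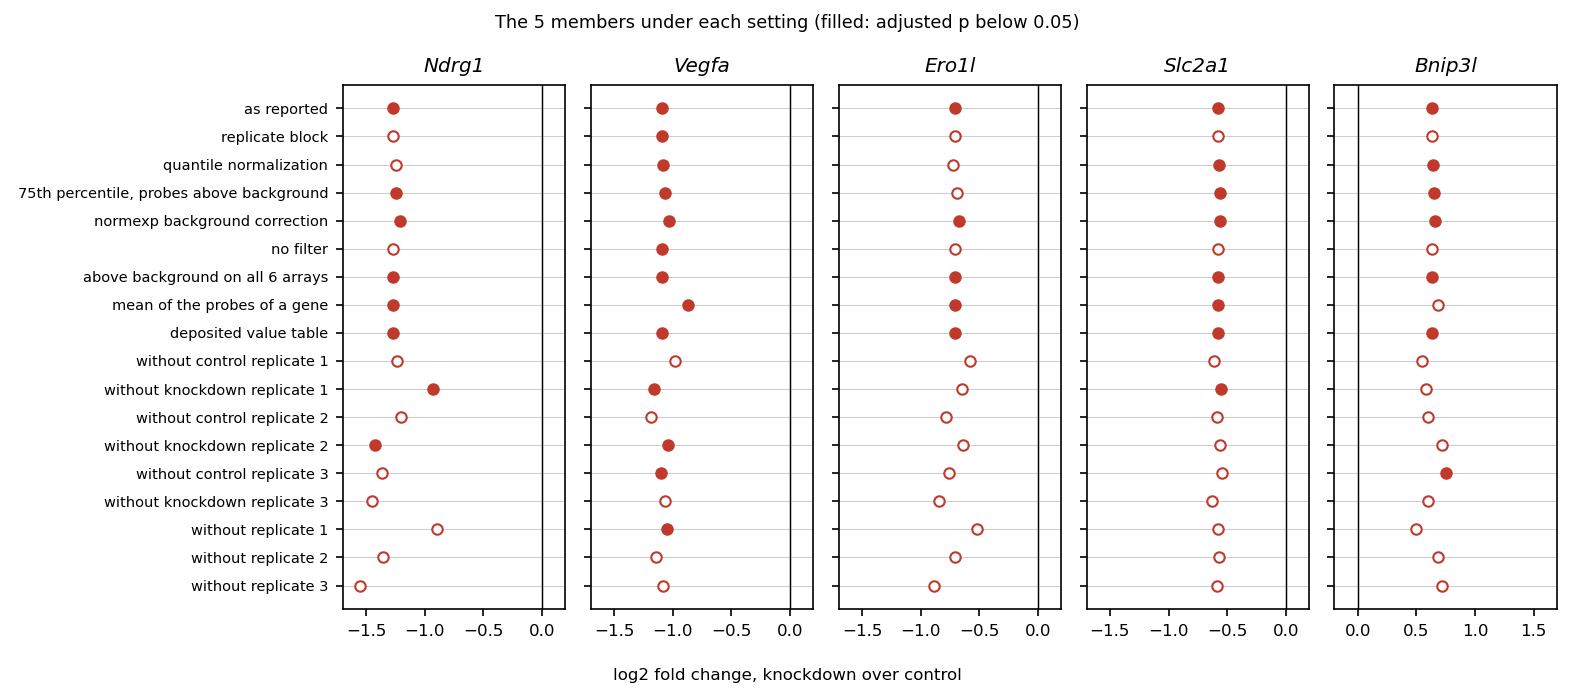
Log2 fold change of the 5 genes (x axis, knockdown over control) as reported and under each of the 17 other settings (rows), filled where the adjusted p was below 0.05. The sign is the same in every row, and without control replicate 1, control replicate 2 or knockdown replicate 3 no point is filled.

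Other genes of the pathway were read from 6 lists, whose counts stand beside 4.57% of all genes higher and 2.84% lower in the knockdown (2.78% and 1.16% under the replicate block). Of 17 HIF subunits and regulators 1 rose and 0 fell. The rise was Hif3a, an alpha subunit with forms that inhibit the others, with 2.60, 1.73 and 1.74 in knockdown arrays, against 0.84, 0.31 and 0.85 in control arrays, 2.56-fold higher (1.36 ± 0.27 on the log2 scale, SE), with a limma adjusted p of 0.0284, and of 0.0366 under the replicate block. Epas1, the HIF-2 alpha subunit, had a log2 fold change of 0.12 ± 0.23 (SE) and the partner Arnt -0.02 ± 0.16 (SE). Vhl, the adaptor that binds hydroxylated HIF, had 0.54 ± 0.17 (SE; limma adjusted p = 0.0951). The list had a median of 0.12.

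Of 30 other tested genes of glycolysis and pyruvate, of 40 listed, 5 rose and 1 fell, with a median log2 fold change of 0.23. Pgam2, the muscle form of phosphoglycerate mutase, had -0.49, -1.40 and -0.76 in knockdown arrays, against -2.82, -3.51 and -2.50 in control arrays, 4.17-fold higher (limma adjusted p = 0.0148). Pgam2 was dim, and its log2 fold change was 1.44 with normexp background correction (limma adjusted p = 0.00566), against 2.06 as reported. Eno3, the muscle enolase, was 1.93-fold higher (limma adjusted p = 0.0139), and both it and Pgam2 also passed with the replicate block. Their counterparts Pgam1 and Eno1 were at 0.00. Ldhb, the lactate dehydrogenase subunit that favours pyruvate, had 4.82, 4.84 and 4.83 in knockdown arrays, against 4.02, 4.25 and 4.26 in control arrays, 1.57-fold higher (limma adjusted p = 0.0247, and 0.0585 under the block). Pdk2 was 2.20-fold higher (1.13 on the log2 scale, and 0.70 with normexp), the transporter gene Slc2a6 was higher by 0.59 on the log2 scale, and Tigar, whose product lowers fructose 2,6-bisphosphate, was 1.48-fold lower, none of them past the threshold with the replicate block. Whether the isoforms of a step differ in response was not tested.

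Of 41 other tested hypoxia-responsive genes, of 45 listed, 5 rose and 4 fell, with a median of 0.02. Plod2, a collagen lysyl hydroxylase, had 1.30, 1.43 and 1.80 in knockdown arrays, against 2.25, 2.51 and 2.81 in control arrays, 2.02-fold lower (limma adjusted p = 0.0258), and Stc2, a secreted glycoprotein gene, was 1.65-fold lower. Pdgfb, a growth factor of glioma and of vessel-lining pericytes, was 2.35-fold higher, the mTORC1 inhibitor gene Ddit4 2.30-fold, the chemokine receptor gene Cxcr4 1.94-fold and Narf 1.49-fold. Of these 6, all but Narf passed with the replicate block. Pdgfb was dim, and its log2 fold change was 0.41 (limma adjusted p = 0.135) with normexp background correction, against 1.23 as reported.

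Of 7 tested genes of the VEGF family and its receptors, 1 fell and 0 rose. Flt1, the gene of VEGF receptor 1, had 1.64, 2.13 and 2.09 in knockdown arrays, against 3.08, 3.02 and 2.77 in control arrays, a level 49.9% of control (limma adjusted p = 0.0187, and 0.0527 under the block). Flt1 and its ligand gene Vegfa were both lower, but of the 7 genes 3 had log2 fold changes above 0 and 4 below. Pgf had 0.58 ± 0.20 (SE; limma adjusted p = 0.13) and Vegfb 0.09, and neither passed. Of 6 endothelial markers Pecam1 and Cdh5 were dim but above background on all arrays and neither passed, while Cldn5 and Kdr were above background on 0 arrays and Tek and Emcn on 1. Their summed level, in multiples of the array's 75th percentile, was 0.17 to 0.194 in knockdown and 0.153 to 0.229 in control arrays. In such bulk samples, fewer cells of a type and less RNA per cell cannot be told apart.

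Of 10 relatives of Ndrg1 and Bnip3l and other mitophagy genes, 2 rose and 0 fell, and neither passed with the replicate block. Pink1, the kinase that starts mitophagy of damaged mitochondria, had 1.37, 0.83 and 0.82 in knockdown arrays, against -0.23, -0.07 and 0.06 in control arrays, 2.13-fold higher (limma adjusted p = 0.0176, and 0.0534 under the block). Ndrg2, a relative of Ndrg1 found in astrocytes, was 1.42-fold higher (limma adjusted p = 0.0478). None of the 15 genes of the pentose phosphate path and glycogen passed in limma, and their median was 0.04. Of the 15, 4 had an unadjusted limma p below 0.05, beside 3507 of all 14148 genes. None of the 19 genes past the threshold in the 6 lists passed without control replicate 1, control replicate 2 or knockdown replicate 3, although no sign changed.

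Markers of other cells gave 1 shift that moved with the groups. Of 5 erythroid markers the 2 tested, the alpha-globin genes Hba-a1 and Hba-a2, were both higher in the knockdown, with a summed level of 4.27 to 7.48 in knockdown and 1.66 to 2.15 in control arrays, while Hbb-bt and Alas2 were above background on 0 arrays. These paralogs can cross-hybridise, and the part of this shift in the results above was not tested. Of 6 microglia and macrophage markers Ptprc, Aif1 and Cx3cr1 were above background on 0 arrays, and the summed level of the 3 others was 11.3 to 14.3 in knockdown and 11.3 to 17.7 in control arrays.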

How the data were processed

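Spot intensity values of 6 arrays were deposited as Agilent Feature Extraction 11.0.1.1 output, background-subtracted by that software per the file headers. All arrays carried 1 slide number and 1 scan date, so neither could act as a batch. The deposited value table holds log2 values; in each column a single constant accounts, within 0.01, for the distance of all 56593 probes from the log2 processed signal, with the 75th percentile near 0 and column medians of -4.46 to -4.21.

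Control and outlier spots were removed, and log2 intensities were averaged over the spots of each probe; 12 of 56605 probes were lost. Accessions were matched without version to RefSeq genes (GRCm38, names only), which named 58.3% of probes. The 75th percentile of each array was subtracted, 31804 probes that were well above background in 3 or more of the 6 arrays were kept, and each gene was read from its brightest probe on average. Groups were compared by limma 3.58.1 (lmFit, eBayes, two-sided, no block) in R 4.3.3, with Benjamini-Hochberg adjustment over 14148 genes; errors are moderated standard errors. The fit was tested on simulated data with independent noise for each gene and array. That setting holds no array that stands apart, as knockdown replicate 1 did, so it does not show how the fit behaves with one.

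The dates in the titles pair each knockdown array with 1 control array, so a replicate block was an alternative; deviations of paired arrays from their group means correlated at -0.02, 0.55 and -0.20. Normexp used median signals. Genes named are Ggct, all 35 genes, and from each wider list up to 6 past the threshold in order of adjusted p; a few others are given as values that did not pass, chosen after their values were seen. The members and lists were chosen with earlier results of these data known.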

Additional observations from a re-analysis of the deposited data

How the results depend on the processing

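Over 17 alternatives the 5 genes past the threshold kept their sign in every one, and 0 of the other 30 genes passed in any. Over all genes 1048 passed as reported, in total 558 with the replicate block, and 357 of 22903 without a filter on dim probes. With single arrays or single pairs left out the count ran from 0 to 840; limma gave 0 without pair 3, where 2795 genes had an unadjusted p below 0.05. Of the 35 genes, those lower numbered 1 with the block, 1 without a filter and 2 with quantile normalization, and 0 to 3 with arrays left out; those higher numbered 0 with the block, without a filter and with the mean of the probes of a gene, and 0 to 1 with arrays left out. Ndrg1 and Ero1l did not pass with quantile normalization. Ero1l also did not pass when the percentile was taken over probes detected on every array. Probes of the set past the threshold numbered 3 with normexp, 2 among probes above background on all 6 arrays, and 0 with the block, without a filter or with arrays left out. The median log2 fold change of the set ran from -0.083 to 0.035 with arrays left out. The sign turned in 49 of 595 values, over 15 genes that did not pass, 10 of them glycolytic enzymes, so no direction is read for those. The setting without a filter tested more genes, and the settings with arrays left out had fewer arrays. What lowered the counts was not tested for any setting. With 3 arrays a group, small changes of the enzymes cannot be told from 0.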
